A study of Homo sapiens with 2 samples.

Results

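NEAT1 and MALAT1 are neighbouring long noncoding RNA (lncRNA) genes on chromosome 11, both read from the plus strand. In the uveal melanoma line OMM2.3, R-loops were mapped by CUT&Tag, and the deposited list of regions that differ between APOBEC3B (A3B) knockdown and control cells was searched at both genes. The 2 regions described here were chosen by their position, as every listed region that overlaps NEAT1 or MALAT1 or lies within 10 kb of either. They are 2 of the 562 regions of the list, and 1 lies at each gene. Because the list itself chose these regions, their presence is a description and was not tested.

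There were 2 groups, shCtrl (a control hairpin) and shA3B (a hairpin against A3B), with 1 library each. Cells of both groups were also transfected with a V5-tagged RNASEH1 carrying the D210N change, which binds RNA:DNA hybrids without cutting them, and the transposase that cuts out the libraries was brought to it through an antibody to V5. Binding by a transfected protein therefore stands in for the R-loop itself. The list has no read count, fold change or direction per region, so a listed region is 1 that differed between the libraries, in a direction that cannot be read from it, and the sequencing depth is unknown. With 1 library per group there was no replicate check, no p-value is given, and the knockdown itself cannot be checked in this list. Positions are on GRCh38.

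An R-loop is an RNA:DNA hybrid with a displaced DNA strand, and it forms where a nascent transcript pairs back with its template. NEAT1 and MALAT1 are among the most abundant nuclear RNAs of many cell types. NEAT1 is the RNA on which paraspeckles are built, and it is made as a short, polyadenylated isoform and a long isoform that share their start; the long isoform is the one paraspeckles need. MALAT1 gathers in nuclear speckles, which store splicing factors. MALAT1 and the long NEAT1 isoform have no poly(A) tail of the usual kind. RNase P cuts before a tRNA-like sequence, and the new 3′ end is held in a triple helix of U-rich stretches and an A-rich tract.

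The NEAT1 region spanned chr11:65420907-65425778, and the MALAT1 region chr11:65498920-65499142. Their widths were 4872 bp and 223 bp, a ratio of 21.8. The sequence at the start of each RNA is shown first, because both regions contain it. For NEAT1 it runs from chr11:65422548-65422847, which is 250 bases before to 50 bases from the RefSeq start, and for MALAT1 it is the whole region. Both are GRCh38 plus strand, and capitals mark TATAAA, the core of a TATA box, which positions RNA polymerase II at a start.

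NEAT1 start: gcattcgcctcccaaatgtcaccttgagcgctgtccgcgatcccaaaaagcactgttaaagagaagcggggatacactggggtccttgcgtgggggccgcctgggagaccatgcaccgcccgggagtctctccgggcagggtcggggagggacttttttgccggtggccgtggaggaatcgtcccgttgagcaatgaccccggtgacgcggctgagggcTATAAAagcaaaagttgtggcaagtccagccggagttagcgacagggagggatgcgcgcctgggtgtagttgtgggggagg
MALAT1 region: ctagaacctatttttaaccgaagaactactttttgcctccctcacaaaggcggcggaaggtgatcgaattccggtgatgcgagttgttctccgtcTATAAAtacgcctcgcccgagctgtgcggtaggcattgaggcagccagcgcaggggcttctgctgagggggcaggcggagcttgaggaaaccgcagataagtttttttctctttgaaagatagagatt

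In NEAT1 the TATAAA stood at positions -31 to -26 relative to the RefSeq start at 65422798. In MALAT1 it stood at positions -30 to -25 relative to the RefSeq start at 65499045. Of 34796 distinct RefSeq promoter windows of this length, 2.31% held TATAAA on the coding strand starting 20 to 40 bases before the start, and 11.6% held it anywhere on either strand. A GC box (GGGCGG, either strand), the site of SP1 family factors, stood in the NEAT1 window at positions -135 to -130 on the minus strand and was not in the MALAT1 window. It was present in 44.9% of all windows. Neither window held CCAAT, found in 34.6% of windows, or TGACGTCA, the cAMP response element, found in 1.84%. The NEAT1 region did hold a TGACGTCA outside this window, at 65422254 to 65422261, which begins at position -544. The share of 1.84% belongs to the shorter promoter windows and gives no comparison for the whole region. These letters were searched after the windows had been read, and a match describes the sequence without showing that a factor binds.

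NEAT1 (ENSG00000245532.11) spans 65422774 to 65445540, a length of 22767 bp. Its region began 1867 bp before the annotated gene and ended 19762 bp before the gene's 3′ end. It covered 3005 bp, or 13.2%, of the gene, all of it at the 5′ end. Relative to the RefSeq start, 1891 bp of the region lay upstream and 2981 bp (61.2%) downstream, and the midpoint was 544.5 bp downstream. The region is therefore a block across the promoter and the first part of the transcribed sequence.

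The NEAT1 isoforms differed in how much of them the region covered. Of the 9 annotated NEAT1 transcripts, all 9 start in the region. The short isoform NEAT1-201, of 3684 bp from start to end, was covered over 3005 bp (81.6%). Coverage was 78.5% to 82.6% for NEAT1-203, NEAT1-207, NEAT1-208 and NEAT1-209, which start within the first part of the gene and end between 65426405 and 65426513. The long isoform NEAT1-202, of 22743 bp, was covered over 2981 bp (13.1%). Coverage was 100% for NEAT1-204 (1601 bp) and NEAT1-206 (1429 bp), the 2 transcripts that both start and end in the region. Only 228 bp (27.3%) of NEAT1-205, which starts near the downstream end, were covered. Because the isoforms share their 5′ part, the region lay in sequence common to both and does not tell the isoforms apart.

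The region stopped short of the 3′ end of the short isoform. Its end was 679 bp from the end of NEAT1-201 and 735 bp from that of NEAT1-208 and NEAT1-209, which reach farthest among the short transcripts. The sequence there is shown because isoform choice at NEAT1 is made at this polyadenylation site. It is chr11:65426434-65426533 on the plus strand, and capitals mark AATAAA, the signal for cleavage and polyadenylation.

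NEAT1 polyadenylation site: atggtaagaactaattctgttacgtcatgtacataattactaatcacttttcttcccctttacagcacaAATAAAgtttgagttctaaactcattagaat

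The AATAAA stood at 65426503 to 65426508, with 724 bp between it and the end of the region. It ended 5 bp before the farthest end of the short transcripts, at 65426513. NEAT1-201, NEAT1-203, NEAT1-205 and NEAT1-207 end before it, at 65426457, 65426405, 65426385 and 65426499. Whether any NEAT1 transcript uses it as a signal was not tested. In the last 80 bases and the next 20 of 19923 canonical protein-coding transcript ends, 65.4% held AATAAA on the coding strand. Beyond this site, no listed region lay in the part of NEAT1 that belongs to the long isoform alone, which also contains the microRNA gene MIR612, 18680 bp from the region.

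MALAT1 (ENSG00000251562.11) spans 65497640 to 65508073 in GENCODE, a length of 10434 bp. Its region lay wholly inside the gene and covered 223 bp (2.14%). Its place in the gene depends on which start is meant. The canonical GENCODE transcript starts 1280 bp before the region, and RefSeq gives starts at 65497738, which is 1182 bp before the region, and at 65499045, inside it. Measured from the start at 65499045, 125 bp of the region were upstream and 98 bp (43.9%) downstream, and the midpoint was at position -14. The region was thus centred on the downstream start, and the upstream starts were outside it.

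The annotated MALAT1 transcripts show the same division. Of 66 transcripts, 33 start in the 223 bp of the region, all between 65499038 and 65499091, and 19 of these start at 65499045 exactly. A further 7 start before the region and 26 after it. No MALAT1 transcript ends in the region.

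**Figure D1:**
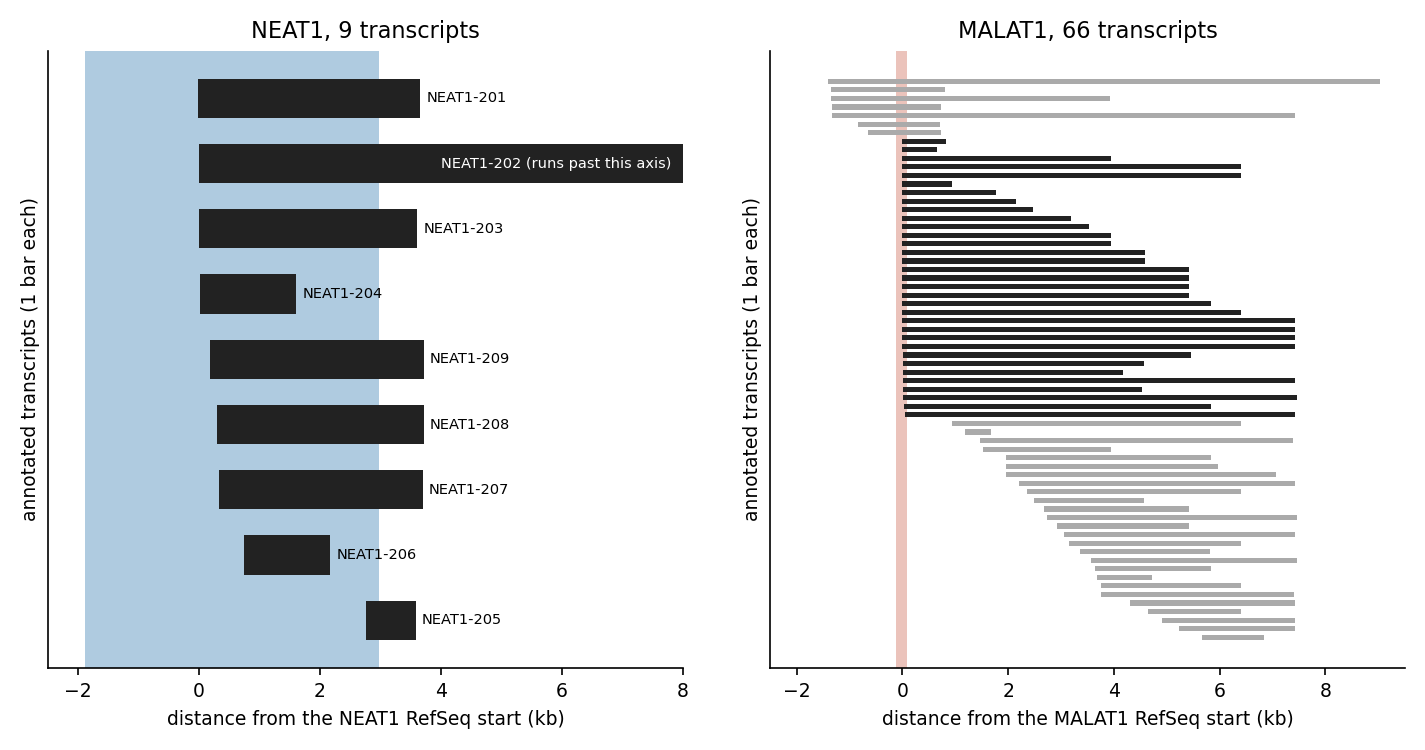
Annotated GENCODE transcripts of NEAT1 (left, 9) and MALAT1 (right, 66) as bars by distance from the RefSeq start in kb, black where the transcript starts in the listed region (shaded) and grey where it does not. All 9 NEAT1 transcripts and 33 of 66 MALAT1 transcripts start in the shaded region, and no MALAT1 transcript ends there.

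The 3′ ends of both RNAs lay far from the regions. The tRNA-like RNA that RNase P and RNase Z release from MALAT1, known as mascRNA, is annotated at 65506117 to 65506173 (57 nt), with 6974 bp between it and the region. The corresponding RNA of NEAT1 is at 65445541 to 65445598 (58 nt), with 19762 bp in between. Of 443 nuclear tRNA genes from RefSeq, 35.4% (157 genes) were overlapped by a listed region, while neither of these 2 tRNA-like sequences was. With only 2 such sequences, this does not show that they differ from tRNA genes. The last 100 bases before each cut, with runs of 4 or more A in capitals, and the tRNA-like RNAs, with the stretch that resembles the B box of a tRNA gene in capitals, are given on the plus strand to show what these region-free ends hold. For NEAT1 they are chr11:65445441-65445540 and chr11:65445541-65445598, and for MALAT1 chr11:65506017-65506116 and chr11:65506117-65506173.

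NEAT1 3′ end: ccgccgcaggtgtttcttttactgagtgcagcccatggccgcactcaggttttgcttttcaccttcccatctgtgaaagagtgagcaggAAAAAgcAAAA
MALAT1 3′ end: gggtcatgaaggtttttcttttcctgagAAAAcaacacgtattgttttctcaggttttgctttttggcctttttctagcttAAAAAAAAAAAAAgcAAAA
NEAT1 tRNA-like RNA: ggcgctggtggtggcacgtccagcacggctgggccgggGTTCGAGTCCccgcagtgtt
MALAT1 tRNA-like RNA: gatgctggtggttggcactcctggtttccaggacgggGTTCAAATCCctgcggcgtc

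Both ends close with A-rich sequence, 21 bases in runs of 4 or more A in the 100 bases of MALAT1 and 9 in those of NEAT1. The B box-like stretch, GTTCNANTCC, was at bases 38 to 47 of the MALAT1 RNA and 39 to 48 of the NEAT1 RNA. The same letters, with N for any base, were found on either strand in 51.2% of the tRNA genes. In NEAT1 downstream of its region, 94.3% of 31-base words were unique in the assembly (alternate contigs left out), and in MALAT1 downstream of its region 97.2% were. In both regions the share was 100%. In the last 1 kb of each annotated gene it was 100% for NEAT1 and 87.2% for MALAT1. For NEAT1 that kilobase ends where the tRNA-like RNA begins. The annotated MALAT1 gene ends 1900 bp past mascRNA, so its last 1 kb lies beyond the 3′ end shown above. Whether read placement bears on where regions were listed was not tested.

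In width the 2 regions were near opposite ends of the list. The NEAT1 region ranked 2 from the widest, wider than 560 (99.6%) of the regions and 4.80 times the median of 1014 bp. The widest, 5176 bp on chromosome 17, was near MIR4521 and BORCS6. The next narrower regions were 3948 bp at EGR1, an immediate early transcription factor gene, and 3860 bp at JUND, which encodes a subunit of AP-1. After these came 3638 bp on chromosome 14, at ANG and RNASE4. The MALAT1 region ranked 5 from the narrowest, and 4 regions (0.712%) were narrower. The narrowest, 199 bp on chromosome 14, was at ARMH4, and 1 of 215 bp on chromosome 17 was at the snoRNA gene SNORD3D. The region of 206 bp lay on an alternate contig of chromosome 6, where no gene annotation was used. That of 220 bp, on chromosome 4, had no annotated gene within 3 kb. The next wider than MALAT1, of 225 bp, lay on an unplaced contig.

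**Figure D2:**
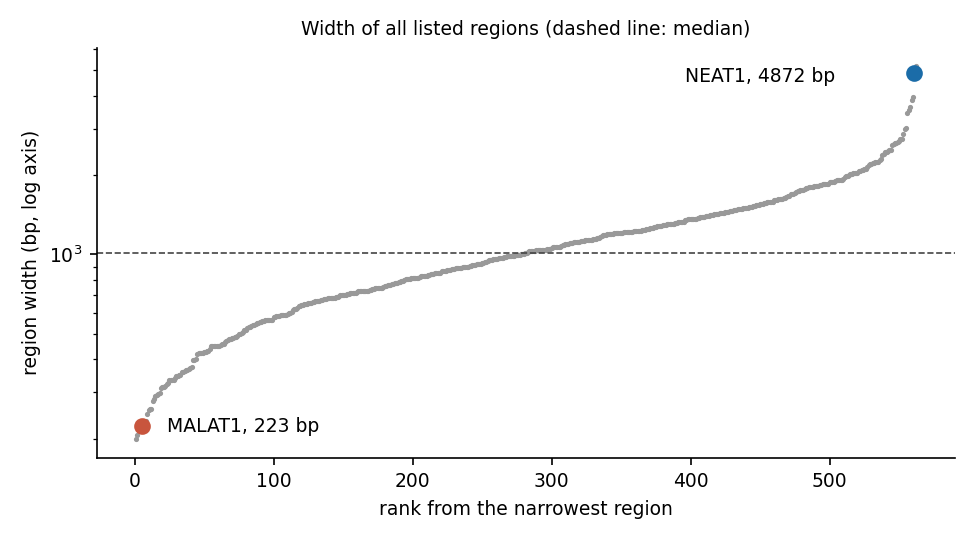
Width in bp (log axis) of the 562 listed regions against their rank from the narrowest, with the NEAT1 and MALAT1 regions in colour and the median of 1014 bp as a dashed line. NEAT1 (4872 bp) stands at rank 561 and MALAT1 (223 bp) at rank 5.

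No other listed region lay between the 2 regions. The regions of NEAT1 and MALAT1 were 73141 bp apart, and 52099 bp separated the genes. Both regions overlapped their gene, and a flank of 3 kb or 50 kb in place of 10 kb left 2 regions. The next region upstream was at SPINDOC, 1606810 bp before the NEAT1 region, and the next downstream was at B4GAT1 and BRMS1, 848232 bp after the MALAT1 region.

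Other transcripts of the locus were overlapped mainly by the NEAT1 region. It overlapped 5 annotated genes, namely NEAT1, the lncRNA gene ENSG00000290057 upstream of it, and 3 short RNA annotations inside the NEAT1 5′ part. The MALAT1 region overlapped MALAT1 alone. TALAM1, the antisense RNA of MALAT1, starts 8290 bp from the MALAT1 region and ends 170 bp from it. ENSG00000270117, on the minus strand upstream, starts 303 bp from it. CUT&Tag does not keep the strand of the hybrid, so the strand from which the RNA came cannot be read from either region. The closest protein-coding gene upstream, FRMD8, ended 7382 bp before the NEAT1 region.

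**Figure D3:**
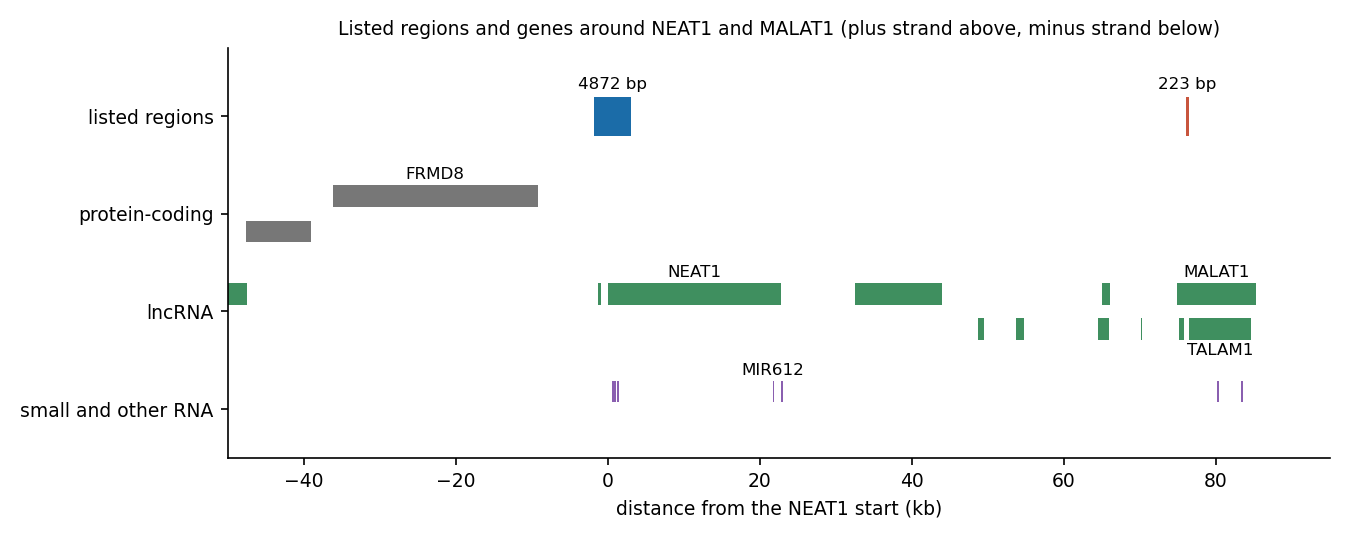
Listed regions (top) and annotated genes by class, as bars by distance in kb from the NEAT1 RefSeq start, with plus-strand genes drawn above minus-strand genes in each row. The 4872 bp region lies at the start of NEAT1 and the 223 bp region inside MALAT1, 73141 bp away, with no listed region at the protein-coding genes drawn.

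Base composition was examined because R-loops are known to favour a G-rich RNA, which pairs tightly with its template. GC content of the NEAT1 region was 54.4% (95% Wilson interval 52.9 to 55.7) and that of the MALAT1 region 51.1% (44.6 to 57.6). Both were below the median of the list, 60.3% (quartiles 53.2 and 65.9), and 28.6% and 18.1% of regions, respectively, were lower. The intervals count bases only. The sequence of each gene downstream of its region had a lower GC content, 42.9% in NEAT1 and 40.3% in MALAT1. The ratio of observed to expected CpG was 0.475 in the NEAT1 region and 0.976 in the MALAT1 region, against a list median of 0.744.

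GC skew was taken as the difference between G and C divided by their sum, read along the RNA, so that a positive value means more G than C in the transcript. It was 0.108 in the NEAT1 region and 0.123 in the MALAT1 region. Among the 453 regions with a midpoint within 3 kb of an annotated transcription start site (TSS), each read on the strand of its nearest TSS, the median was 0.0206, with quartiles of -0.0426 and 0.0847. Of these regions, 81.0% had a lower skew than NEAT1 and 84.1% a lower skew than MALAT1. Both thus lay above the upper quartile. The MALAT1 value rests on only 223 bp, and no interval was computed for skew, so its place among the regions is uncertain.

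Within each region the skew differed between the sequence before and after the RefSeq start. In NEAT1 it was -0.0884 upstream of the RefSeq start and 0.249 from the start on. In MALAT1 it was -0.0476 upstream and 0.333 downstream, over 98 bp. In the gene downstream of the region, skew was 0.0405 in NEAT1 and 0.182 in MALAT1. The MALAT1 value there was above the 0.123 of its whole region, so positive skew was not confined to that region. Of the 11 windows of 250 bp downstream of the NEAT1 start that lay wholly in the region, 10 had a positive skew, and the highest was 0.556. Of the 7 such windows upstream, 2 did, and 1 of these was the window next to the start, at 0.111. Runs of 3 or more G on the coding strand numbered 29.2 per kb in the NEAT1 region from the start on, against 12.1 per kb in the rest of the gene. In MALAT1 there were 2 runs in the 98 bp downstream of the start, or 20.4 per kb, and 13.2 per kb in the gene downstream of the region. Over the whole region NEAT1 had 27.1 runs per kb, and 23.8 per kb upstream of its start, while MALAT1 had 8.97 per kb. Against the median of 24.2 over the same 453 regions, 63.4% had fewer runs per kb than NEAT1 and 3.53% fewer than MALAT1. The 200 bases of the NEAT1 region with most G in such runs are shown, with the runs in capitals. They lie at chr11:65424870-65425069, 2072 to 2271 bp after the RefSeq start, near the downstream end of the region.

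NEAT1 G-rich stretch: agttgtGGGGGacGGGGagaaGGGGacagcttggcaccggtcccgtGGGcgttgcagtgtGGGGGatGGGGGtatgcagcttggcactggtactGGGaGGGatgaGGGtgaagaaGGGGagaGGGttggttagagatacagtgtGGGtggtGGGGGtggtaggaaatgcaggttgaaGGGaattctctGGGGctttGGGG

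The stretch held 16 such runs, with 100 G and 21 C, a skew of 0.653. It was picked for its G runs, so these values are high by choice and only describe it. In MALAT1 the extremes lay outside the region. Among the 250 bp windows skew was highest, at 0.529, in the window from 500 to 749 bp after the start. GC content reached 72.8% in the window from -1500 to -1251 bp, which holds the canonical GENCODE start and the upstream RefSeq start. Neither window was in a listed region.

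**Figure D4:**
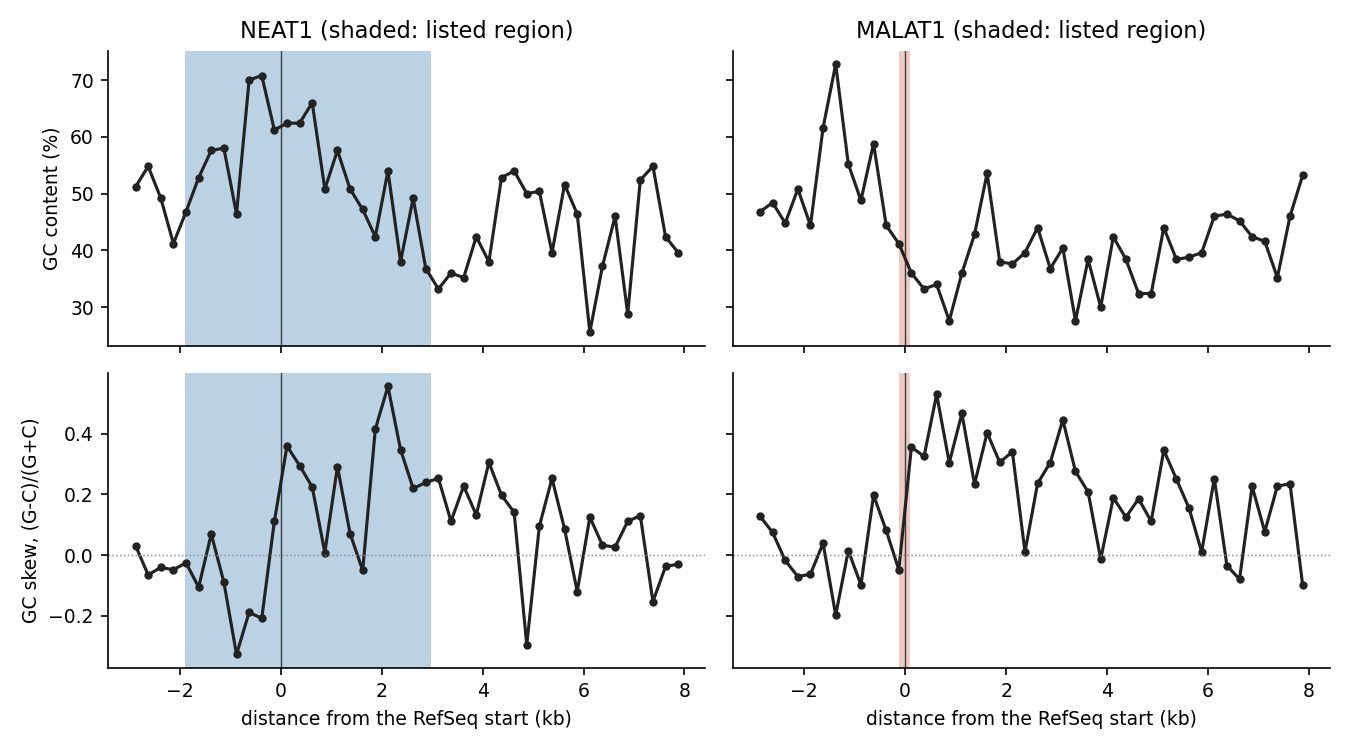
GC content in % (top) and GC skew (bottom) in windows of 250 bp by distance in kb from the RefSeq start (vertical line) of NEAT1 (left) and MALAT1 (right), with the listed region shaded. In NEAT1 the shaded region had a skew of -0.0884 over its part upstream of the start and 0.249 over its part downstream, and in MALAT1 the GC maximum of 72.8% lies upstream of the narrow shaded region.

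Among lncRNA genes, 1.60% (301 of 18866) had a listed region in the gene or within 10 kb, and 1.01% (191 genes) had one at the promoter, defined as a region midpoint within 3 kb of any annotated TSS. Since NEAT1 and MALAT1 were picked with the list in view, these shares are given beside them and nothing is read from the difference. Listed regions overlapped 173 lncRNA genes, 159 with 1 region and 14 with more, and 85 had over 10% of their bases covered. NEAT1 ranked 4 by bases covered, after ENSG00000287264 (4653 bp in 4 regions), ENSG00000285703 (3521 bp in 3 regions) and LINC01962 (3483 bp in 2 regions). Among genes with 1 region it ranked 1, and the next, ENSG00000285646, had 2068 bp covered. MALAT1 ranked 149 of 173 by bases covered.

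By share of the gene covered NEAT1 was less extreme. Among all 173 overlapped lncRNA genes, whose median share was 9.06%, NEAT1 ranked 76 and MALAT1 ranked 128. Among the 106 of at least 5 kb, whose median was 2.47%, NEAT1 ranked 17 and MALAT1 ranked 61. The named genes of this length with 1 region and a covered share closest to NEAT1 were HCG11 (13.5%) and HLCS-AS1 (12.2%), and those closest to MALAT1 were EFCAB13-DT (2.33%), ZNF213-AS1 (2.39%) and SCMH1-DT (2.39%). HCG11 and HLCS-AS1 are 5696 and 8704 bp long, so a like share there meant 769 and 1063 bp, against 3005 bp in NEAT1.

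**Figure D5:**
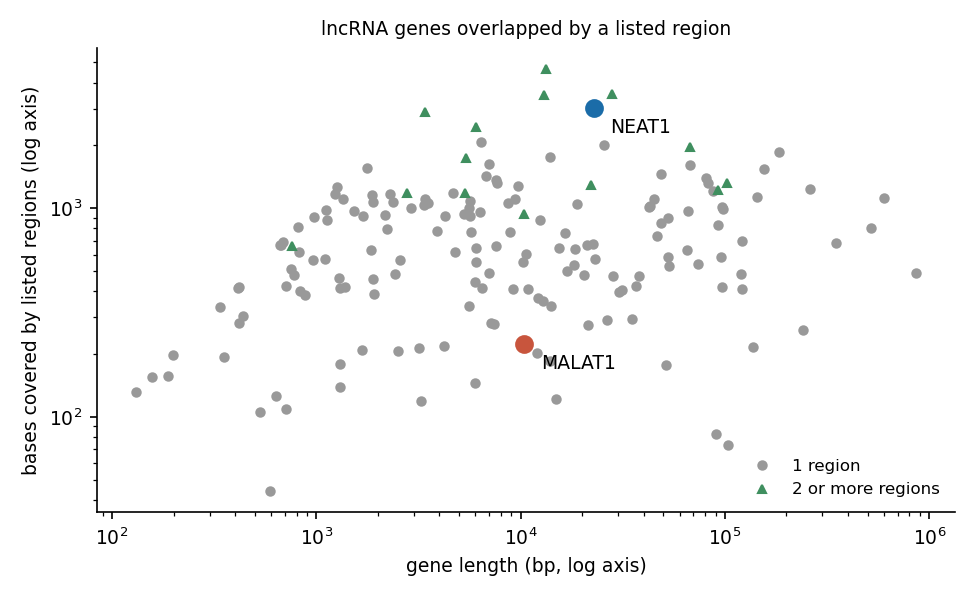
Bases covered by listed regions against gene length in bp (both log axes) for the 173 overlapped lncRNA genes, as circles for 1 region and triangles for 2 or more. NEAT1 (3005 bp covered) stands highest among genes with 1 region, and MALAT1 (223 bp) stands in the lower part.

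The genes that act with these RNAs were then examined by the same promoter rule. Of 32 genes for proteins of paraspeckles, 1 had a region at the promoter (3.12%, 95% Wilson interval 0.554 to 15.7), beside 2.19% (438 of 20033) of all protein-coding genes. It was ZC3H6, a zinc finger gene, with a region of 1302 bp (chromosome 2, 112275155 to 112276456) whose midpoint was 208.5 bp from a TSS. The core paraspeckle proteins that bind NEAT1, SFPQ, NONO and PSPC1, had none, nor had RBM14, which paraspeckles need to form.

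Of 20 nuclear speckle and splicing genes, 1 had a region (5.00%, 0.888 to 23.6). It was SRSF11, a splicing factor of the SR family, with 843 bp (chromosome 1, 70221217 to 70222059) and a midpoint 86 bp from a TSS. SRSF1, SRSF2, SON and SRRM2 had none. Of 24 genes for RNA 3′ end formation, which include the protein subunits of RNase P and the cleavage factors NUDT21 and CPSF6 that favour the short NEAT1 isoform, 1 had a region (4.17%, 0.739 to 20.2). It was ELAC1, an RNase Z, with 708 bp (chromosome 18, 50967759 to 50968466) and a midpoint 64.5 bp from a TSS. ELAC2, the other RNase Z gene, had none. Each of the 3 intervals includes the share of all protein-coding genes.

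Of 24 other lncRNA genes, several of them nuclear, 23 were matched by symbol and 0 had a region at the promoter or in the gene (Wilson interval 0 to 14.3%), beside the 1.01% of all lncRNA genes with a region at the promoter. Among them were KCNQ1OT1, TUG1, GAS5 and NORAD. The number of genes is too small to show that the share differs from that of all lncRNA genes.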

How the data were processed

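The deposited file is a list of regions from CUT&Tag in 2 OMM2.3 libraries, shCtrl and shA3B, grouped by sample title. Per the labels and methods, the authors trimmed reads with cutadapt 4.1, aligned them to GRCh38 with Bowtie2 2.2.5, removed duplicates with Picard 2.27.3, filtered at a mapping quality of 2 with SAMtools 1.15.1, called peaks with SEACR 1.3 and compared them with edgeR. The edgeR version, dispersion and thresholds are not given in the sources used here. The 3 columns hold coordinates as deposited by the authors (chromosome, start, end). All region names and ends fit the assembly. Widths follow the authors' peak calling.

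Starts were made 1-based. Genes were taken from GENCODE release 44, and RefSeq (GRCh38.p14) gave 1 start of NEAT1, 2 of MALAT1, promoter windows and tRNA genes. Regions, the nearest regions on each side, overlapped genes, listed genes at a promoter, the widest regions and lncRNA genes of like coverage were named by rule. The members and gene lists were chosen with earlier results of these data known, and motifs after reading the sequence. Functions were tested on made-up intervals. Python 3.11.15, numpy 2.4.6, scipy 1.17.1, pysam 0.24.0 and matplotlib 3.10.9 were used.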

Additional observations from a re-analysis of the deposited data

How the results depend on the processing

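The 15 results were recomputed 49 times. In 31 cases the value stayed in the 95% interval of the main one, or within 1.5 times it for counts, distances and skew. In 18 it moved and in 0 it changed sign. Only skew could change sign, since the other results cannot be negative. With only the wider 50% of the list, the regions at the 2 genes fell from 2 to 1 and the covered share of MALAT1 from 2.14% to 0%, since the MALAT1 region is narrow, and SRSF11 and ELAC1 lost their regions, leaving 0 nuclear speckle and 0 end formation genes. The RefSeq span gave 2.54% of MALAT1. The distance from the midpoint to the nearest start of the gene was 196.5 bp for NEAT1 and 7 bp for MALAT1; with RefSeq starts it was 544.5 and 14 bp, with the canonical start 544.5 and 1391 bp, and from the nearest base 0 bp for both. In 1 kb around the midpoint, GC content was 60.4% for NEAT1 and 38.8% for MALAT1, and the NEAT1 skew 0.229. In the 500 bp downstream of the RefSeq start, GC content was 62.4% and 34.6%, and skew 0.327 and 0.341. The MALAT1 region is narrower than these windows.

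The short NEAT1 isoform was not recomputed with RefSeq, since the table used holds gene spans only. No paired analysis was possible because there was a single library of each kind. The list has no score, so the authors' threshold could not be varied, and depth is unknown.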
